A study of Mus musculus with 3 samples.

Results

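Lymphoid priming is the low expression of lymphoid genes in bone marrow progenitors before they commit to a B or T cell fate. It was followed here through 8 genes: Dntt, Rag1, Rag2, Il7r, Flt3, Blnk, Ikzf1 and Satb1. All 16 probe sets that the platform annotation pairs with 1 of these symbols alone were taken, and the 8 genes are part of 18193 genes with such a probe set.

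The samples were bone marrow cells of C57BL/6J mice, 10 weeks old, selected for Sca-1 and against lineage markers. One array held wild type cells. The other arrays held cells of 2 transgenic lines, Line 6 and Line 3, both labelled Tg(Ly6a-KDM1A*v2, a construct that joins the Ly6a (Sca-1) name to the gene of the histone demethylase LSD1. With 1 array per genotype, no replicate error and no p-value can be given for any difference below, and the wild type array serves as the control of both lines. How many mice were pooled for an array, and of which sex, is not given in the labels.

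In progenitors, the FLT3 receptor tyrosine kinase and the interleukin 7 receptor support cells on the lymphoid path, and transcription factors such as Ikaros (Ikzf1) and the chromatin organiser SATB1 prepare lymphoid genes for expression. Cells further along that path switch on the RAG1 and RAG2 recombinase, which cuts antigen receptor gene segments, and terminal transferase (Dntt), which adds bases without a template at the cut ends. The adaptor BLNK then acts in signalling from the receptor on early B cells.

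The wild type, Line 6 and Line 3 arrays had a common trimmed mean intensity of 497 and medians of 96.2, 116 and 99.0. Centring the arrays on their medians moved the median difference of all genes in Line 6 from 0.04 to -0.19 on the log2 scale, and that of Line 3 against Line 6 from 0.01 to 0.21. Kdm1a, which encodes LSD1 in the mouse, had intensities of 2104, 2575 and 2979 on its brighter probe set and of 916, 911 and 1482 on its dimmer one, where Line 6 lay at -0.01 from wild type. Ly6a has no probe set of its own in the annotation, so Sca-1 was not checked. S100a8, a neutrophil gene, was among the brightest genes at 25535, 22487 and 18745, although the cells were selected against lineage markers. The arrays also differed in sex-linked transcripts, with Xist at 2729, 6152 and 5155 and the Y-linked gene Eif2s3y at 2325, 978 and 1031 on their brightest probe sets. The dimmer probe sets of both differed more. Those of Xist gave 1006, 3923 and 4090, and 674, 3078 and 2774, and that of Eif2s3y gave 369, 137 and 96.3. The part of these sex-linked differences in the results was not tested.

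The promoters of the 4 genes that differed most between the arrays are shown because these genes lie in 2 pairs of neighbours on the genome. Rag1 and Rag2 point towards each other on chromosome 2, with start sites 24.8 kb apart. Dntt and Blnk point away from each other on chromosome 19, with start sites 35.1 kb apart and no other protein-coding gene between them in the gene table. Each sequence runs from 250 bases before to 50 after the start site, from RefSeq with build GRCm38.p6, and was found for all 8 members. Capitals mark matches to any of 5 core motifs on either strand: CAGGTG (an E-box bound by E proteins), TGGGAA (Ikaros), GAGGAA (PU.1), TGTGGT (RUNX) and the palindromic EBF1 core.

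Rag1 (chr2:101649483-101649782, minus strand): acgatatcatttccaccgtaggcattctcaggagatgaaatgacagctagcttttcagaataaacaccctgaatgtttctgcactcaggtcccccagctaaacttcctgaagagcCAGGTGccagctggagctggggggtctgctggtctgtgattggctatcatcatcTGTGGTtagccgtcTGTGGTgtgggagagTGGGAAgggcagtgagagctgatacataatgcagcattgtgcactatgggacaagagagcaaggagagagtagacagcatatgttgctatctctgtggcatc
Rag2 (chr2:101624462-101624761, plus strand): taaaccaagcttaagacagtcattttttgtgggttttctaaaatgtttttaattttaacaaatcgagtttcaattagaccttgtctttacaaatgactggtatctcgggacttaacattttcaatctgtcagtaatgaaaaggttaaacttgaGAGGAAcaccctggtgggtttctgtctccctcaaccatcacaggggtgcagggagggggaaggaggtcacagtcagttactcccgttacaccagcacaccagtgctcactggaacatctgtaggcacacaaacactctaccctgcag
Dntt (chr19:41029025-41029324, plus strand): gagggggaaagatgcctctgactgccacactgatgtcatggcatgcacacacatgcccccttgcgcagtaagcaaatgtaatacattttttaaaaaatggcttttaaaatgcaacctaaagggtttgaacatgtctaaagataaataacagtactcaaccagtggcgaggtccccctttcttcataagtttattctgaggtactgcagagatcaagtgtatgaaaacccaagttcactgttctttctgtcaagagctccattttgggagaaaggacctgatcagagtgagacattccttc
Blnk (chr19:40994172-40994471, minus strand): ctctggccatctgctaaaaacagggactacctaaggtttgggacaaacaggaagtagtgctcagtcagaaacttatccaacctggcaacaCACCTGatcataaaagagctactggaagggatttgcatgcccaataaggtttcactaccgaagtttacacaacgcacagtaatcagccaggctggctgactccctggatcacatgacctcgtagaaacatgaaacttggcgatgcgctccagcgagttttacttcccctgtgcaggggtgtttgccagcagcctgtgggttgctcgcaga

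The Rag1 window held an E-box, an Ikaros core and a pair of RUNX cores, the Rag2 window held a PU.1 core, the Blnk window held an E-box on the reverse strand, and the Dntt window held none of these letters. No printed match overlapped another. Over 32851 windows of the same length, 20.2% held the E-box, 25.6% the Ikaros core, 28.3% the PU.1 core, 0.904% the EBF1 core and 16.8% the RUNX core. None of the 8 members held the EBF1 core. These matches describe the letters of the windows only, and none of the arrays measured binding.

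The question for each line was how the lymphoid priming genes compared with wild type. Dntt, Rag1, Rag2 and Blnk were the members furthest above wild type in Line 6, by 2.78-fold to 5.64-fold on the brightest probe set of each. In Line 3 these 4 genes lay 1.77-fold to 2.21-fold above wild type. Ikzf1 lay slightly below wild type in both lines, and Flt3 was 1.99-fold above wild type in Line 3 and 1.10-fold above it in Line 6. Differences here and below are on the log2(intensity + 16) scale, which understates those of dim genes, and folds are taken on that scale.

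**Figure D1:**
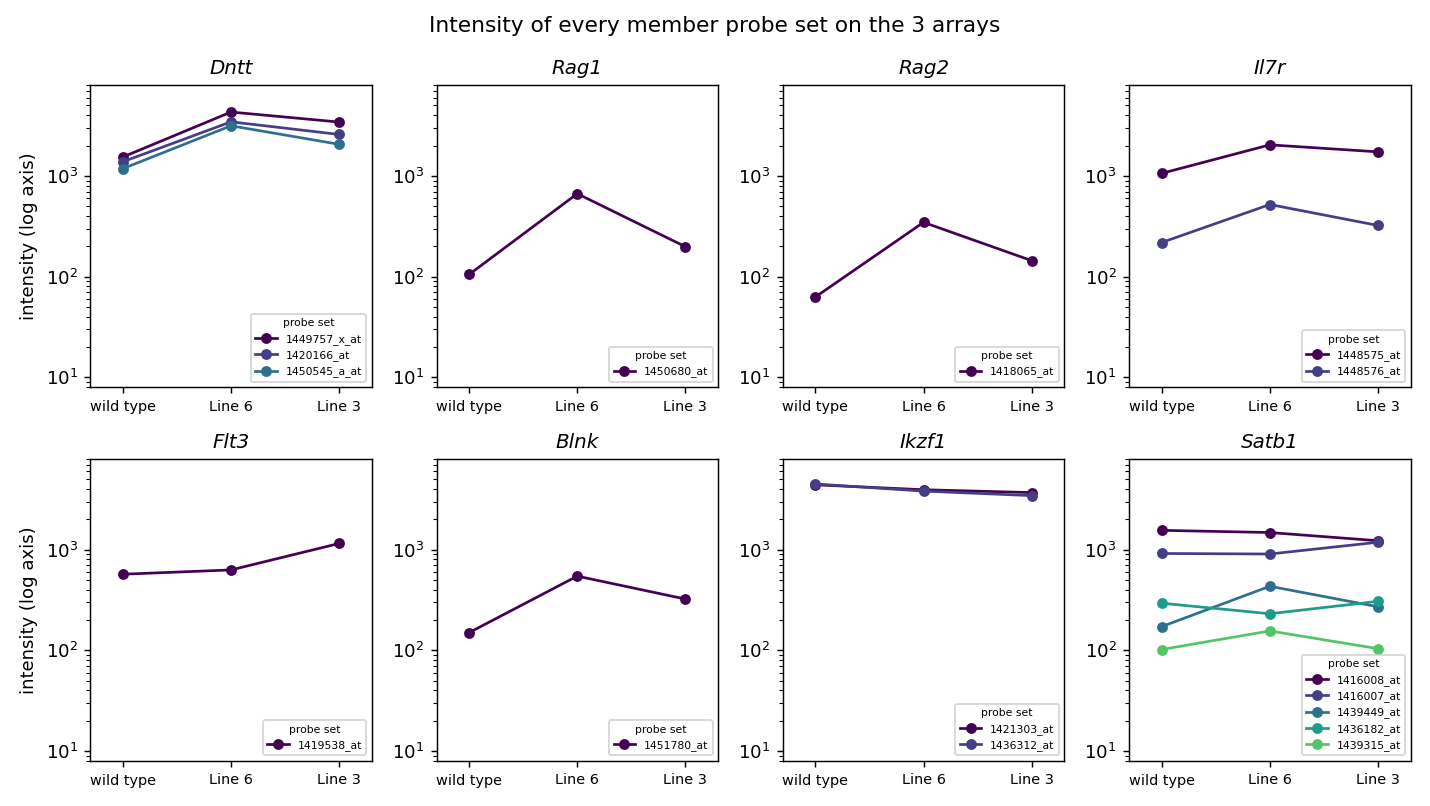
Intensity of each of the 16 member probe sets (log axis) on the wild type, Line 6 and Line 3 arrays, with 1 panel per gene and 1 line per probe set. Rag1 peaks at 666 in Line 6, Flt3 is highest in Line 3 at 1152, and the 5 Satb1 probe sets do not share an order.

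Of the receptors, Il7r encodes the alpha chain that gives interleukin 7 receptors their ligand specificity. On its brighter probe set the wild type array gave 1059, the Line 6 array 2034 and the Line 3 array 1733. On the dimmer one the same arrays gave 218, 520 and 322. Both were highest in Line 6 and lowest in wild type. The brighter one lay above wild type by 0.93 (Line 6) and 0.70 (Line 3), each inside the 2-fold limit (1 on the log2 scale), while the dimmer one passed it in Line 6 at 1.20 (0.96 after centring on array medians) and differed by 0.53 in Line 3.

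Flt3 had a different order. Its 1 probe set gave 570 on the wild type array, 629 on the Line 6 array and 1152 on the Line 3 array. The Line 6 array lay close to wild type, at 0.14, and turned to -0.10 after centring on array medians. The Line 3 array lay 0.99 above wild type, just inside the limit, and 0.86 above Line 6. By the brightest probe set of each gene, Flt3 was the 1 member of 8 that was higher in Line 3 than in Line 6. Satb1 lay at -0.27 on that measure, but its other probe sets ran from -0.64 to 0.39 for Line 3 minus Line 6.

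Among the transcription factors, Ikzf1 was bright on all arrays and differed little. Its 2 probe sets gave 4403 and 4487 on the wild type array, 3934 and 3813 on the Line 6 array, and 3686 and 3438 on the Line 3 array. Wild type was the highest array and Line 3 the lowest on both. Set against wild type, Line 6 lay at -0.16 and -0.23 and Line 3 at -0.26 and -0.38, and the order of the lines turned after centring on array medians, to 0.11 and 0.05 for Line 3 minus Line 6.

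The 5 Satb1 probe sets disagreed, so no single direction is given for this gene. The brightest gave 1555, 1479 and 1226 on the wild type, Line 6 and Line 3 arrays. The second gave 916, 905 and 1185. Line 3 was therefore the lowest array on the brightest probe set and the highest on the next. A dimmer probe set gave 172, 433 and 271, and Line 6 lay 1.26 above wild type on it and Line 3 lay 0.62 above. The remaining 2 read 294, 231 and 307, and 102, 156 and 104. Over all 5, the difference from wild type ran from -0.32 to 1.26 in Line 6 and from -0.34 to 0.62 in Line 3.

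The recombinase genes gave the widest range over the arrays. Rag1 gave 105 on the wild type array, 666 on the Line 6 array and 198 on the Line 3 array. That is 5.64-fold above wild type in Line 6, a difference that 8 of 18193 genes exceeded, and 1.77-fold above it in Line 3, a difference that 1261 genes exceeded. Rag2, the partner without which RAG1 does not cut, gave 62.7, 346 and 144. It lay 2.20 above wild type in Line 6, which 17 genes exceeded, and 1.02 in Line 3, which 652 genes exceeded. Both genes had the order Line 6, Line 3, wild type, and Line 3 minus Line 6 was -1.67 for Rag1 and -1.18 for Rag2. Rag2 lay below the array median in wild type and above it in both lines, so its fold depends most on the pseudocount.

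Dntt was bright on all arrays and its 3 probe sets kept 1 order. They gave 1539, 1381 and 1180 on the wild type array, 4305, 3442 and 3145 on the Line 6 array, and 3424, 2578 and 2058 on the Line 3 array. Every probe set was highest in Line 6 and lowest in wild type. Line 6 lay 1.47, 1.31 and 1.40 above wild type, past 2-fold on all 3, and Line 3 lay 1.15, 0.89 and 0.79 above it, past 2-fold on the brightest alone.

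Blnk, the adaptor gene of early B cells, gave 150 on the wild type array, 546 on the Line 6 array and 323 on the Line 3 array. It shared the order of Dntt and the recombinase genes. Line 6 lay 1.76 above wild type, which 69 genes exceeded, and Line 3 lay 1.03 above it, which 633 genes exceeded. Line 3 minus Line 6 was -0.73, inside the limit.

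**Figure D2:**
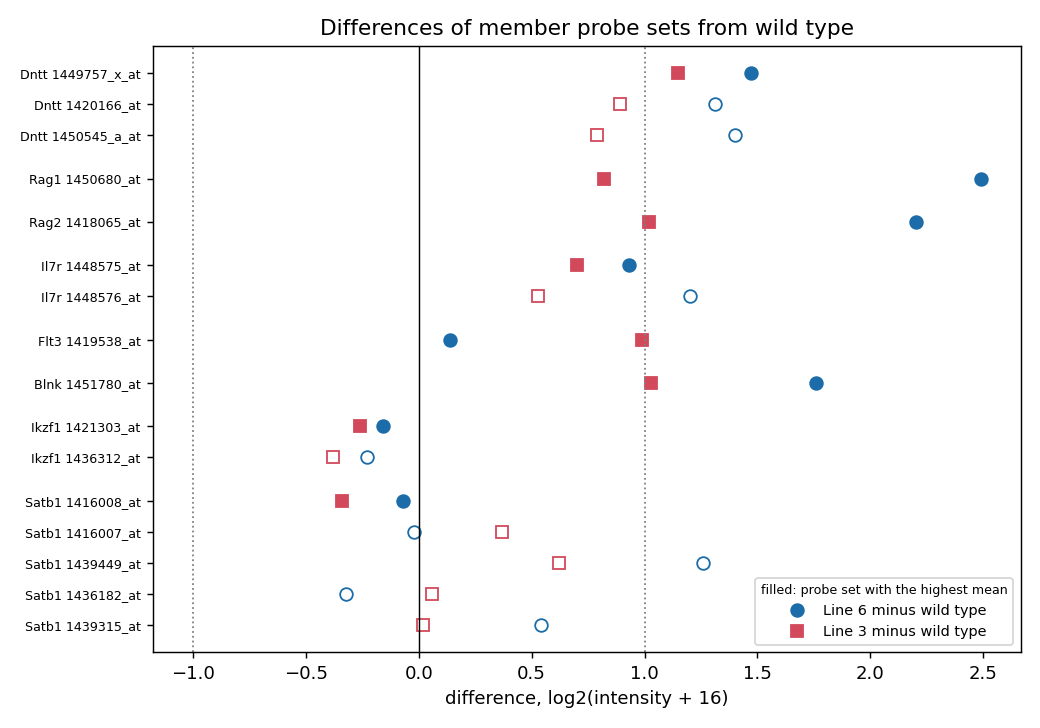
Difference from wild type of each of the 16 member probe sets (x axis, log2(intensity + 16)) for Line 6 (blue circles) and Line 3 (red squares), with the probe set that represents each gene filled and dotted lines at 2-fold. Line 6 reaches 2.49 for Rag1, while no Line 3 value is above 1.15.

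Counted by genes, 4 of the 8 members (Dntt, Rag1, Rag2 and Blnk) exceeded wild type by 2-fold or more in Line 6, where 3.81% of all genes did, and none was 2-fold lower, where 3.28% were. In Line 3, 3 of 8 (Dntt, Rag2 and Blnk) were 2-fold higher, where 3.87% of all genes were, and none was lower, where 4.89% were. The Line 3 count was 1, Dntt, under each of 3 other scalings. Rag2 then lay at 0.94 to 0.99 and Blnk at 0.92 to 0.99. Under the 2 other ways to represent a gene the Line 3 count was 2, Rag2 and Blnk, with Dntt inside the limit at 0.89. Of the 16 probe sets, 8 were 2-fold higher in Line 6 and 3 in Line 3, where 3.89% and 3.54% of all probe sets with 1 symbol were. The median difference of the 8 genes was 1.20 in Line 6 and 0.91 in Line 3, and that of all genes was 0.04 in both. All 8 members had at least 1 array at or above its median, Rag2 through the transgenic lines alone.

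Between the lines, the recombinase genes lay furthest apart. Rag1 and Rag2 were past 2-fold lower in Line 3 than in Line 6, where 3.10% of all genes were, and no member was 2-fold higher, where 1.58% were. In all, 7 of the 8 members were below Line 6 in Line 3 by the brightest probe set of each, with a median of -0.30 against 0.01 for all genes. The 7 include Satb1, whose probe sets disagreed in direction. After centring on array medians 6 of 8 were below, with a median of -0.10 against 0.21 for all genes. The Rag2 difference then lay just inside the limit, at -0.98, and Flt3 passed it on the higher side, at 1.06.

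**Figure D3:**
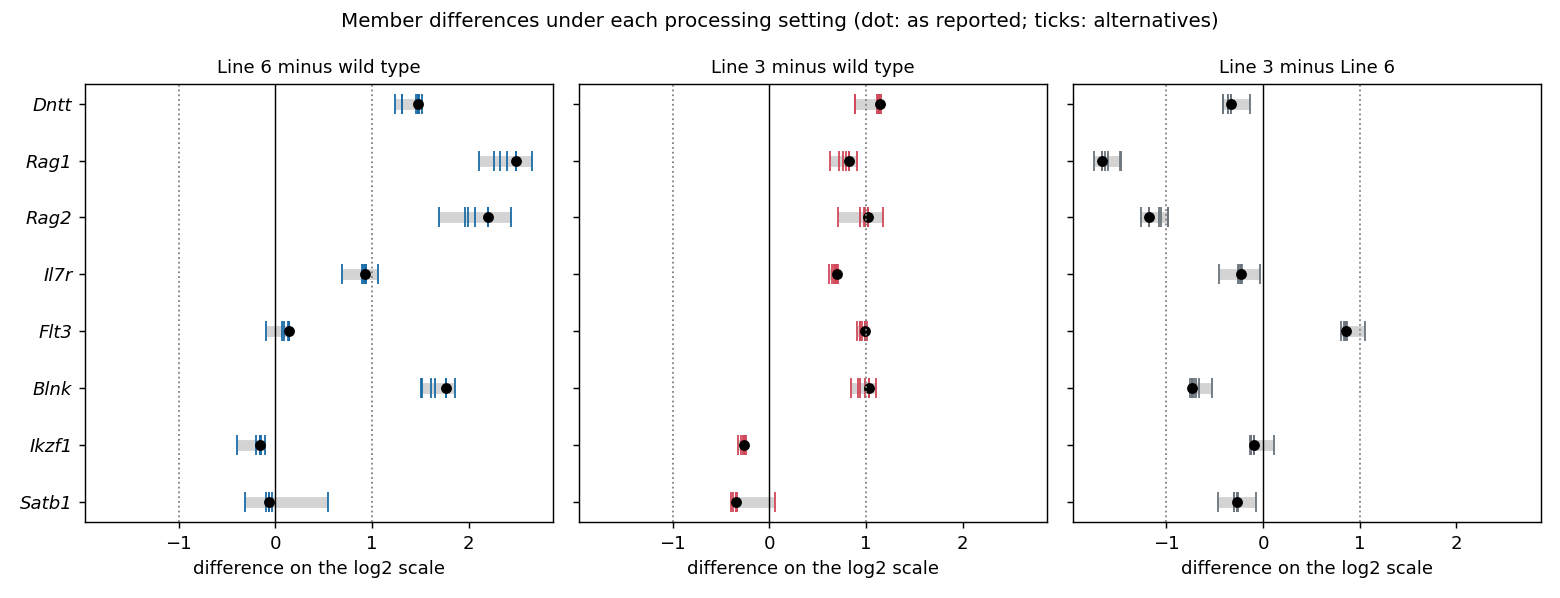
Difference of each member gene (x axis, log2 scale) in each of the 3 comparisons as reported (black dot) and under up to 9 alternative settings (ticks, with the grey bar from lowest to highest). Rag1 in Line 6 stays between 2.11 and 2.65, while Dntt, Rag2, Blnk and Flt3 in Line 3 and Il7r in Line 6 straddle the dotted 2-fold line.

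The genes that work beside the members were taken from 5 lists. Of 13 measured genes of V(D)J recombination and end joining, 1 was 2-fold higher in Line 6 and 2 in Line 3, and none was lower. Prkdc, the gene of the DNA-dependent protein kinase of end joining, gave 157 on the wild type array, 357 on the Line 6 array and 420 on the Line 3 array, or 1.11 and 1.33 above wild type. Xrcc5, whose protein binds the broken ends, gave 70.7, 135 and 251, or 0.80 and 1.62 above wild type, where it lay below the array median. Both were highest in Line 3, unlike Rag1 and Rag2. The list median of 0.24 in Line 6 was 0.00 after centring on array medians, and the Line 6 count was 0 under each of 3 other scalings.

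Of 11 measured genes of signalling from the IL-7 and FLT3 receptors, 1 was 2-fold higher in Line 6 and none was in Line 3. None was lower in either line. After centring on array medians none was higher and 1, Crlf2, was 2-fold lower in Line 6. Line 6 likewise had 0 higher genes under the 2 other ways to represent a gene, 1 of which measured 6 genes. Foxo1, a transcription factor known to act on Il7r and the Rag genes, gave 375 on the wild type array, 845 on the Line 6 array and 711 on the Line 3 array, or 1.14 and 0.89 above wild type. Bcl2, a survival gene, differed by 0.62 and 0.85. Crlf2, the receptor gene for TSLP, which pairs with the Il7r chain, differed by -0.91 and -0.33. The list medians were -0.04 in both lines.

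The Ikaros relative Ikzf2 differed more than Ikzf1. Ikzf2 (Helios) gave 366 on the wild type array, 765 on the Line 6 array and 859 on the Line 3 array. These values lay 1.03 and 1.20 above wild type. Ikzf4 (Eos) lay below the median of every array, at 32.4, 110 and 49.7, where it cannot be told from background. Ikzf3 (Aiolos) differed by 0.80 and 0.28. Of the list's 9 measured genes, which include chromatin partners such as Chd4 (0.10 in both lines), 2 were 2-fold higher in Line 6 and 1 in Line 3, and none was lower. The Line 6 count was 1 under each of 3 other scalings and with each of 2 filters, and 0 with a pseudocount of 64. After centring on array medians, which shifts every Line 6 difference alike, the 1 gene left was Ikzf4, and Ikzf2 came inside the limit. Both filters removed Ikzf4 and left Ikzf2.

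The pre-B cell receptor and BLNK partners split by line. Of 10 measured genes, 4 were 2-fold higher in Line 6 (3 after centring on array medians) and none in Line 3, and none was lower in either. Vpreb1, which encodes part of the surrogate light chain, gave 616 on the wild type array, 3303 on the Line 6 array and 521 on the Line 3 array. Blk, a B cell kinase gene, gave 51.2, 284 and 105, and lay below the array median in wild type. Cd79a and Cd79b, which carry the receptor's signal, lay 1.44 and 1.18 above wild type in Line 6 and 0.33 and 0.65 above it in Line 3. In Line 3, Vpreb1 lay at -0.24 and Blnk at 1.03 from wild type. The kinase genes Syk (-0.19 and -0.44) and Btk (0.17 and -0.55) lay inside 2-fold in both lines.

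Among 19 other measured factors and receptors of lymphoid progenitors, 3 were 2-fold higher in Line 6 and 1 in Line 3, and none was lower. Bach2, a transcriptional repressor of B cells, gave 248 on the wild type array, 1179 on the Line 6 array and 370 on the Line 3 array. Pax5 and Ebf1, the factors that fix the B cell fate, were higher in Line 6 by 2.11 and 1.81. In Line 3 they lay below wild type at -0.69 and -0.59, and below the array median. Under the 2 other ways to represent a gene, Ebf1 lay above wild type in Line 3, at 0.28 and 0.22. Cd27, a receptor of the tumour necrosis factor family found on lymphoid-primed progenitors, differed by 0.83 and 1.22, and Tcf3, the gene of the E2A factors, by 0.76 and 0.89. Ccr7, a chemokine receptor gene, was dim at 62.4, 110 and 135, below the array median in wild type and Line 6, and differed by 0.68 and 0.95. Cd27, Tcf3 and Ccr7 thus had the order Line 3, Line 6, wild type on the deposited scale, as Flt3 did.

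**Figure D4:**
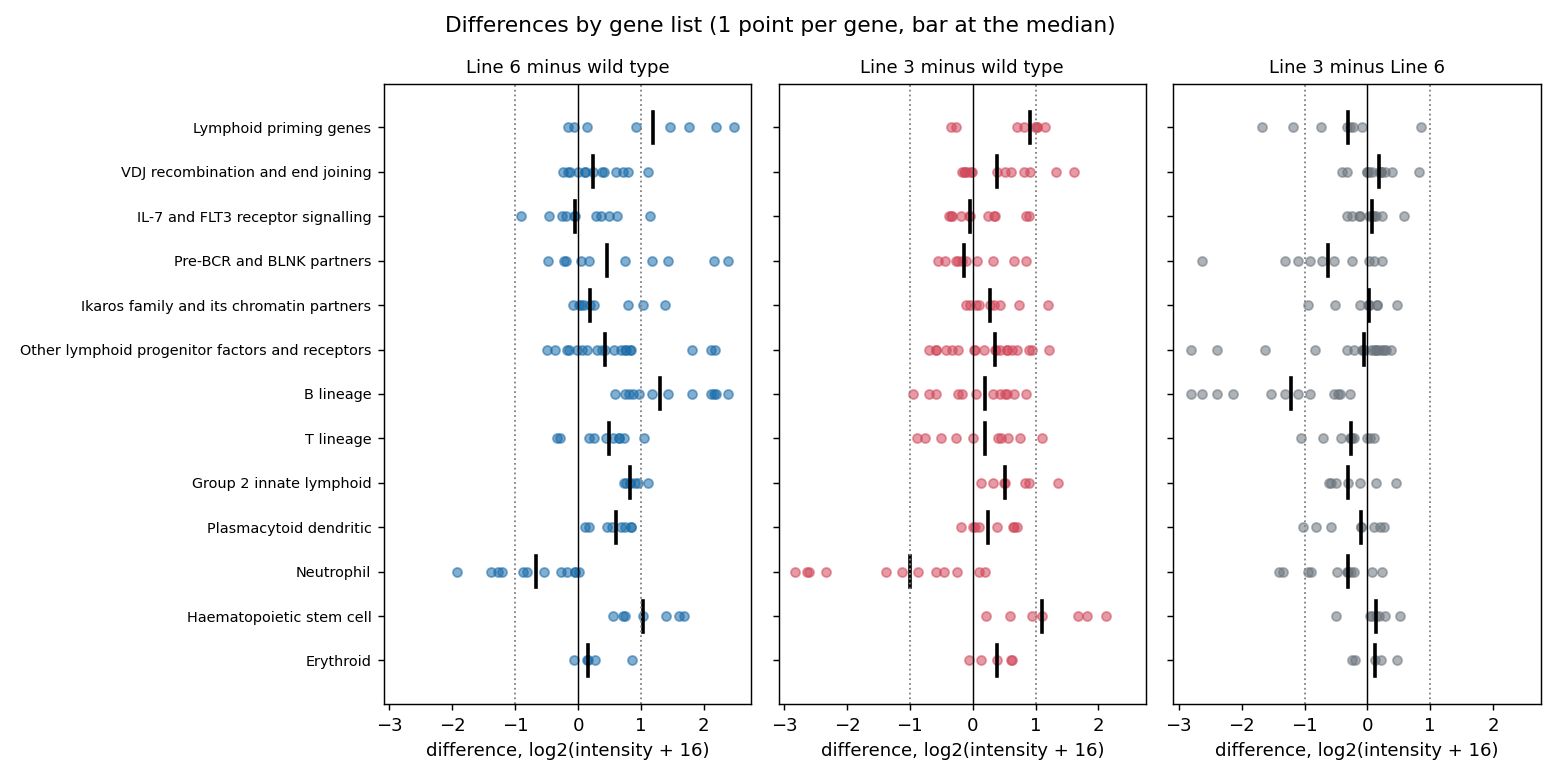
Differences in the 3 comparisons (x axes, log2(intensity + 16)) for the 8 lymphoid priming genes, 5 lists of genes that work beside them and 7 lists of cell type markers, with 1 point per gene, a bar at each median and dotted lines at 2-fold. B lineage markers have a median of 1.31 in Line 6 and 0.19 in Line 3, and neutrophil markers -0.68 and -0.99.

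Markers of other cells moved with these results, and in bulk samples fewer cells of a type and less RNA per cell cannot be told apart. B lineage markers had a summed intensity of 5625 on the wild type array, 14573 on the Line 6 array and 6921 on the Line 3 array. They share 6 of 14 listed genes with the pre-B cell receptor list and 2, Ebf1 and Pax5, with the list of other factors and receptors. Of 12 measured, 7 were 2-fold higher in Line 6 and none in Line 3. All of the 7 but Vpreb3 were already counted in those 2 lists. None of the 12 was at 0 on any array. Ms4a1 was the dimmest by its mean, at 83.5, 134 and 35.4, and Blk was dimmer than it in wild type, at 51.2. Neutrophil markers summed to 169073, 124424 and 104252, with 4 of 12 measured 2-fold lower in Line 6 and 6 in Line 3. Those furthest below wild type were Itgb2l (-1.92 in Line 6 and -2.82 in Line 3) and Mmp8 (-1.28 and -2.63). Mpo (0.02 and 0.10) and Elane (-0.05 and 0.19) hardly differed, so the fall was not shared by the whole list. Stem cell markers summed to 1280, 2714 and 3054, with 4 of 7 measured 2-fold higher in each line (3 in Line 6 under each of 3 other scalings). The part of these in the results was not tested.

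Markers of T cells, group 2 innate lymphoid cells and plasmacytoid dendritic cells, which can express Il7r or Flt3, and of erythroid cells were summed in the same way. T lineage markers summed to 1887, 2605 and 2208, with 1 of 10 measured 2-fold higher in each line, Zap70, at 1.05 and 1.11 (none in Line 6 under each of 3 other scalings). The Cd3 genes lay between 133 and 295 on all arrays. In Line 6 and Line 3, Cd3d differed from wild type by -0.34 and -0.76, Cd3e by 0.17 and -0.88, and Cd3g by 0.25 and -0.00. The T lineage list medians were 0.50 and 0.20. Group 2 innate lymphoid markers summed to 919, 1738 and 1556, with 1 of 7 measured 2-fold higher in each line. In Line 3 this was Rora, at 1.36, which lay below the array median in wild type. In Line 6 it was the cytokine gene Il5, which lay below the median of every array, at 2.14, 23.5 and 9.89, where it cannot be told from background, and which was inside 2-fold after centring on array medians. Plasmacytoid dendritic cell markers summed to 8866, 12328 and 11261, with none of 8 measured past 2-fold in either line. Erythroid markers summed to 10064, 11737 and 11134, with none of 5 measured past 2-fold. The part of these in the results was not tested.

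The genes most like Rag1 and Rag2 were found by the distance between their pairs of differences from wild type, over 3 arrays and 8850 genes, with the 8 members left out of the search. Nearest to Rag1 were Gfra2, a GDNF family receptor gene (232, 1564 and 537 on the wild type, Line 6 and Line 3 arrays), Bach2 and Vpreb3 (119, 600 and 124), at distances of 0.38, 0.41 and 0.83. Nearest to Rag2 were Bach2, Gfra2 and Mylk, a myosin kinase gene (466, 1491 and 960), at 0.47, 0.49 and 0.56. With 3 arrays a pattern has few degrees of freedom, and nearness in it is a description.

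The genomic neighbours of these 4 genes were looked up too. The 8 other protein-coding genes in or within 100 kb of the pairs all had a probe set. None was 2-fold higher than wild type in either line, where 3.81% of all genes were in Line 6 and 3.87% in Line 3. In a line, 2 were 2-fold lower, where 3.28% of all genes were in Line 6 and 4.89% in Line 3. Cc2d2b (1.28, 13.3 and 17.5) and Tll2 (1.81, 1.46 and 0.742) lay far below every array median, where they cannot be told from background. Traf6, beside the Rag genes, gave 857, 899 and 1138 on the wild type, Line 6 and Line 3 arrays. Prr5l, also beside them, gave 162, 77.6 and 64.7, and lay at -1.14 in Line 3. Ccnj, near Dntt and Blnk, gave 394, 411 and 303. Opalin, near the same pair, gave 61.4, 20.4 and 51.3, below the median of every array, and lay at -1.09 in Line 6.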

How the data were processed

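RNA of 3 samples was hybridised to Affymetrix GeneChip arrays after Ovation Pico WTA amplification and biotin labelling, per the labels' protocols. The deposited values are intensities on a linear scale, 1 per probe set. Neither summary method nor software is stated in the labels. The intensities show a scaling made before deposit, because the mean after trimming 2% from each end was 497 on every array. No detection calls came with the intensities.

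Of 45037 probe sets, 34945 had 1 gene symbol in the platform annotation, 932 had more than 1, and 9160 had no entry. Symbols of 34741 were updated through their Entrez identifier in a RefSeq gene table (GRCm38.p6). Values were transformed as log2(intensity + 16). For each gene the probe set brightest on average over the arrays was used, with no filter on low values, which gave 18193 genes. No test was run, because each genotype had 1 array. A gene counted as higher or lower at a 2-fold difference. The members, the gene lists and the motifs were chosen with earlier results of these data known. The values of all member probe sets are given. For each other gene list the text names up to 4 genes with the largest absolute mean difference of the lines from wild type, plus genes needed to say what the list holds. For the 2 members with the widest range it also names the 3 genes with the nearest pair of differences, searched among genes whose mean lay at or above the median gene mean. The genomic neighbours were looked up after the values were seen. The calculation was checked on simulated data. Alternatives were 3 other scalings, 2 other pseudocounts, 2 filters, 2 other ways to represent a gene and 2 other limits. Quantile normalization and cyclic loess were run in limma 3.58.1 with R 4.3.3. The rest was run in Python 3.11.15 with pandas 2.3.3 and numpy 2.4.6, and figures with matplotlib 3.10.9.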

Additional observations from a re-analysis of the deposited data

Results flagged for a closer look

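Of 124 genes, the 8 members and the measured genes of the accompanying lists, 6 lay above wild type on the 1 Line 6 array and below it on the 1 Line 3 array, with the lines 2-fold apart. Over all genes, 2.90% lay on opposite sides of wild type with the lines that far apart, in either direction, and the differences were not tested. No member was among the 6, but Flt3 met the same rule after median centring. On the log2 scale Line 3 minus Line 6 was -2.81 for Pax5, -2.63 for Vpreb1, -2.39 for Ebf1 and -1.54 for Ms4a1. These 4 are all on the B lineage list and also met the rule under each of 3 other scalings. Ebf1 did not meet it under the 2 other ways to represent a gene, lying above wild type in Line 3 at 0.28 and 0.22. Ms4a1 came inside 2-fold with a pseudocount of 64 (-0.99), and lay below the array median in wild type and Line 3. Line 3 minus Line 6 was -1.03 for Siglech, a surface receptor gene of plasmacytoid dendritic cells, which came inside 2-fold after median centring (-0.83). It was -1.05 for Cd3e, a T cell receptor complex gene, which no longer passed 2-fold when any of these scalings was used, at -0.97 to -0.85, and lay below wild type in Line 6 as well after median centring (-0.06).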

How the results depend on the processing

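No paired analysis was possible because each genotype had 1 array, and for the same reason no array could be left out. Of 213 member differences recomputed under 9 alternative settings, 194 kept their sign and their side of the 2-fold limit, 12 came inside the limit, 3 passed it and 4 changed sign without having passed it. Line 6 had 4 higher members and Line 3 had 3 as reported. The Line 6 count stayed within 1.5 times under all alternatives. The Line 3 count was 1 after quantile normalization, median centring or cyclic loess and with a pseudocount of 64. It was 4 with a pseudocount of 1, where Flt3 was added, 6 at a 1.5-fold limit and 0 at a 3-fold limit. The count of members lower in Line 3 than in Line 6, 2 as reported, was 1 after median centring, with a pseudocount of 64, with the filter on the gene mean (which left out Rag2) and at a 3-fold limit. The count of members higher in Line 3 than in Line 6, 0 as reported, was 1 after median centring and at a 1.5-fold limit, in each case through Flt3. The members' median of Line 3 minus Line 6, -0.30 as reported, was -0.10 after median centring and -0.46 with the median of probe sets. The 4 sign changes were Flt3 in Line 6 (-0.10 after median centring), Ikzf1 in Line 3 against Line 6 (0.11 after median centring) and Satb1 in both lines against wild type (0.54 and 0.06 with the median of probe sets). Among all genes past 2-fold in Line 6, 53.8% were higher as reported, against 38.6% after quantile normalization, 24.0% after median centring and 38.8% after cyclic loess. For Line 3 against Line 6 the share was 33.8% as reported and 50.6%, 64.5% and 49.4% under the same scalings. Without detection calls, dim values could not be told from background, and 3 arrays limit how precise any value here can be.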
